A study of Rattus norvegicus with 10 samples.

Results

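The plasminogen activator genes Plat and Plau, the urokinase receptor gene Plaur and 3 genes of serine protease inhibitors, Serpina5, Serpina3n and Tfpi, were followed in cultured rat Sertoli cells given follicle-stimulating hormone (FSH). Sertoli cells line the seminiferous tubule and support the developing germ cells. The members were chosen by name: each probe set whose only annotated gene symbol is listed was taken, which gave 6 probe sets, 1 for each of the 6 genes, of 8740 on the array after control probe sets were left out. All 6 passed the filter on dim probe sets, as did 4439 of the 8740. The filter asked for a mean of at least 31.9 over all arrays, and Plat, at 28.4 in the untreated cultures, met it through the treated groups. The cells came from 20-day-old rats and were measured as total RNA on 10 arrays in 5 groups of 2. The groups were untreated cultures, taken as 0 h, and cultures treated with FSH for 2, 4, 8 and 24 h. Of the untreated arrays, that of replicate 1 is labelled control without a time. Every group shares the age, the species and the cell type. The labels give no strain, no FSH dose and no separate cultures behind the replicate numbers, so each p-value reflects the spread between arrays and that spread may be technical. No untreated culture is labelled later than 0 h, so FSH and time in culture cannot be told apart in any change below.

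Plasminogen activators are secreted serine proteases that cut plasminogen to plasmin, a protease of broad range. The tissue-type activator (Plat) is best known from blood vessels, and the urokinase-type activator (Plau) works at the cell surface, bound to its receptor (Plaur). Serpins such as Serpina5 trap their target protease in a covalent complex, while Tfpi blocks the start of coagulation through Kunitz domains. In the testis, Sertoli cells secrete both activators, and this proteolysis has been linked to the release of sperm and to the passage of young germ cells through the junctions between Sertoli cells.

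Promoter windows are shown for Plau, the activator that did not pass the test at any time below, and for Crem, which stood among the genes most like Plat in their course. FSH acts through cAMP, and the cAMP response element is the site at which CREB and CREM proteins bind. The windows are the 250 bases before a RefSeq transcript start on assembly GRCr8, written along the gene's strand. Capitals mark TGACG or its reverse complement CGTCA, the pieces from which the full element TGACGTCA is built, and GGGCGG or its reverse complement CCGCCC, the GC box.
Plau, chr15:3511988-3512237, minus strand: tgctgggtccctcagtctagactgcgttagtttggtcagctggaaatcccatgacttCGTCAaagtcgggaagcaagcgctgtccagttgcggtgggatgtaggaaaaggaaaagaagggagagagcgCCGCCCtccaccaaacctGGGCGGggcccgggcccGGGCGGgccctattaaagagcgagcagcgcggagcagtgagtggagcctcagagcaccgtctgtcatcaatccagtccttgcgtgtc
Crem, chr17:58985240-58985489, plus strand: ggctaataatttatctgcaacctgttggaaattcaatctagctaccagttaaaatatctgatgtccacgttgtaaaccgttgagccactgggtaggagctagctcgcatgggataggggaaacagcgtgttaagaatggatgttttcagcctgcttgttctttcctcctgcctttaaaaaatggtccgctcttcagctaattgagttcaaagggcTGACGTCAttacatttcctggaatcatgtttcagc
The Plau window held 3 GC boxes and 1 TGACG piece but no TGACGTCA. The Crem window held TGACGTCA once, 35 bases before the start. A further start of Crem also had it once, 56 bases before, and the remaining start not at all. Among members, 5 of 6 genes matched the promoter table (Plau, Plaur, Serpina5, Serpina3n and Tfpi), and none of their windows held TGACGTCA on either strand. Plat was the member without a window. Of the other genes most like Plat, Bex3 had 4 TGACG pieces, Dgcr6 had 3, Mvk had 1 and Ezr had 0. None of these windows held TGACGTCA either. Of 33469 windows of the same length, 1.59% held TGACGTCA, 18.2% held TGACG and 30.5% held GGGCGG, each counted on both strands. A TGACGTCA also holds TGACG, on each strand. A match describes letters only.

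Intensities below were scaled so that every array had the same 75th percentile, and were set to a floor of 13.4 before log2 was taken. No member value lay at that floor. Sertoli markers were present on every array, with Clu at 6779 to 13782, Wt1 at 117 to 342, Amh at 152 to 349 and Fshr at 56.6 to 195. Of the same list, Rhox5 was dim (28.4 to 41.2), and Gata1 (13.7 to 51.6) and Kitlg (2.92 to 47.6) were too dim to test. The arrays also carried signal of other cells. The summed intensity of the 8 germ cell markers bright enough to test, of 15 on the array, reached 2643 to 3137 on arrays of replicate 2, against 381 to 1137 on those of replicate 1. The ratio of 3' to 5' signal of beta-actin, a measure of RNA quality, lay at 1.48 to 1.76 in replicate 2, against 0.928 to 1.17 in replicate 1.

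Plat was the only member with a change against 0 h that passed the test below. Its intensity was 26.7 and 30.1 in the untreated cultures (replicate 2, then 1, here and below), 155 and 211 after 2 h of FSH, 379 and 523 after 4 h, 606 and 499 after 8 h, and 71.1 and 52.4 after 24 h. Every treated array lay above both untreated arrays, those of 24 h included. The means were 28.4 ± 2.39 at 0 h, 183 ± 39.4 at 2 h, 451 ± 101 at 4 h, 553 ± 75.7 at 8 h and 61.7 ± 13.2 at 24 h (SD, n = 2 each). In order of mean level, 8 h came first, followed by 4, 2, 24 and 0 h. The arrays of 4 and 8 h overlapped.

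Plat rose at 2, 4 and 8 h. By limma, an array model fitted over all 4439 probe sets, the log2 change against 0 h was 2.68 ± 0.34 at 2 h (SE, adjusted p = 0.0119), 3.97 ± 0.34 at 4 h (adjusted p = 0.000847) and 4.28 ± 0.34 at 8 h (adjusted p = 0.00116). At 24 h it was 1.11 ± 0.34, or 2.15-fold, which missed the threshold (adjusted p = 0.962). Groups that do not overlap, with the treated arrays higher, were seen at 24 h for 15.9% of all probe sets. Within replicate 2 the 4 log2 changes were 2.54, 3.83, 4.51 and 1.41, and within replicate 1 they were 2.81, 4.12, 4.05 and 0.80. Both rose up to 4 h and were lower at 24 h than at 8 h. Replicate 2 was highest at 8 h and replicate 1 at 4 h. Neighbouring times differed less clearly. Between 4 and 2 h the log2 difference was 1.30 ± 0.34 (adjusted p = 0.798). Between 8 and 4 h it was 0.31 ± 0.34 (adjusted p = 1).

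By its means, Plat fell after 8 h. The level was 61.7 ± 13.2 at 24 h, against 553 ± 75.7 at 8 h, a log2 change of -3.17 ± 0.34 or 9.02-fold lower (limma, adjusted p = 0.0109). Of the 6 members 1 was called in this comparison, where 0.225% of all probe sets were called. Each adjusted p over 0.05 came with 1 array left out or the filter removed: 0.116 and 0.0901 without 8 h replicates 1 and 2, 0.135 and 0.0867 without 24 h replicates 1 and 2, and 0.0527 with no filter, at log2 changes of -3.39 to -2.95. The 2 h call was likewise lost without control replicate 1 (adjusted p = 0.0583), control replicate 2 (0.0780) or 2 h replicate 1 (0.136), with log2 changes of 2.76, 2.59 and 2.46. The 4 h and 8 h calls held in all 19 alternatives, but the size depended on the scale: with log2(value + 16) the changes at 2, 4 and 8 h were 2.15, 3.38 and 3.67.

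**Figure D1:**
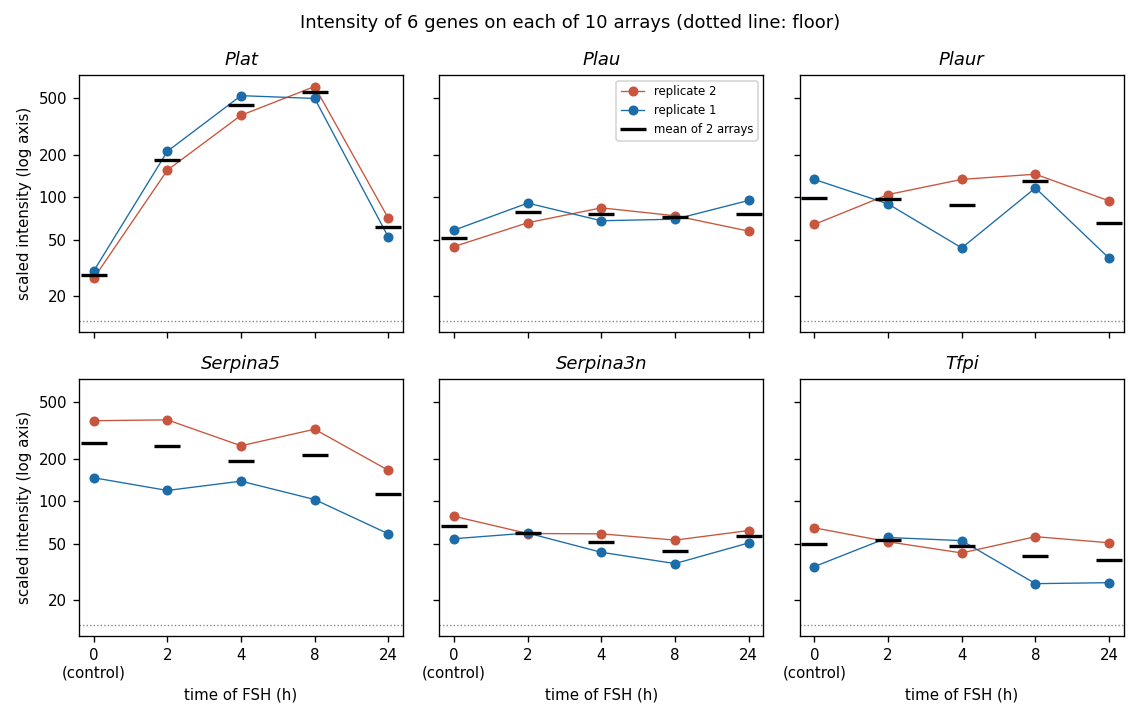
Scaled intensity (log axis) of each gene on each of the 10 arrays against time of FSH, with times evenly spaced. Coloured points are arrays of replicate 2 or replicate 1, black bars are the mean of 2 arrays, and the dotted line is the floor. Plat lies at 379 to 606 on the 4 h and 8 h arrays and at 26.7 and 30.1 in the untreated cultures. The other genes stay within a narrower range, with Serpina5 split by replicate number.

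The other activator, Plau, had a much flatter course. Its intensity was 44.8 and 58.5 at 0 h, 66.1 and 90.9 at 2 h, 84.1 and 68.2 at 4 h, 74.0 and 70.0 at 8 h, and 57.6 and 95 at 24 h. The treated arrays lay above both untreated arrays at 2, 4 and 8 h and overlapped them at 24 h. Such a lack of overlap with higher treated arrays was seen for 11.9%, 15% and 17.7% of all probe sets at 2, 4 and 8 h. The log2 changes of Plau were 0.60, 0.57, 0.49 and 0.53 (SE 0.37 each) at 2, 4, 8 and 24 h, with adjusted p of 0.999, 0.939, 0.792 and 0.996 by limma. Leaving out 1 array gave 0.37 to 0.83, 0.37 to 0.76, 0.30 to 0.68 and 0.17 to 0.89 at these times. The 95% intervals of these changes reached at most 1.43, 1.40, 1.32 and 1.36, all below the lower bounds for Plat at 2, 4 and 8 h, which were 1.91, 3.21 and 3.51. At 24 h the intervals overlapped, with 0.34 to 1.87 for Plat. In order of mean level, 2 h (78.5 ± 17.6) came first, then 24 h (76.3 ± 26.4), 4 h (76.2 ± 11.3), 8 h (72.0 ± 2.85) and 0 h (51.7 ± 9.71). The arrays of the treated times overlapped.

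Plaur, which anchors the urokinase-type activator at the cell surface, had differences of opposite sign in the 2 replicate numbers. It had 64.3 and 134 at 0 h, 105 and 89.7 at 2 h, 134 and 43.8 at 4 h, 146 and 116 at 8 h, and 94.3 and 37.1 at 24 h. All groups overlapped the untreated arrays. Within replicate 2 every treated array lay above its own control, with log2 differences of 0.70, 1.06, 1.18 and 0.55 at 2, 4, 8 and 24 h. Within replicate 1 every treated array lay below its own control, with -0.57, -1.61, -0.20 and -1.85. Each set of 4 differences shares 1 control array, so its common sign is not 4 independent observations. The replicate 2 array was the lower at 0 h (64.3, against 134) and the higher at 2, 4, 8 and 24 h. The fitted log2 changes were 0.06, -0.28, 0.49 and -0.65 (SE 0.62 each), and none passed the test (limma, adjusted p = 0.915 to 0.999).

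Among the inhibitors, Serpina5 (protein C inhibitor, which acts on urokinase and on several coagulation proteases) differed between replicate numbers. It had 371 and 146 at 0 h, 376 and 119 at 2 h, 247 and 139 at 4 h, 323 and 103 at 8 h, and 165 and 58.8 at 24 h. The replicate 2 array was the higher at all 5 times, which held for 11% of all probe sets. In the fit with the replicate number as a term, replicate 2 exceeded replicate 1 by 1.39 ± 0.19 log2 units, or 2.63-fold (limma, adjusted p = 0.00189). That made 1 of 6 members called, against 15.2% of all probe sets. Among the germ cell markers 5 of 8 were called higher in replicate 2, among them Ldhc by 3.22, Crisp2 by 2.13 and Ddx4 by 1.99 log2 units. Of the 10 Sertoli markers tested 4 were called lower, namely Gata4 (-1.46), Inha (-0.89), Fshr (-0.75) and Wt1 (-0.68). The part of the germ cell markers, and of the beta-actin ratio that differed alike, in the Serpina5 difference was not tested.

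**Figure D2:**
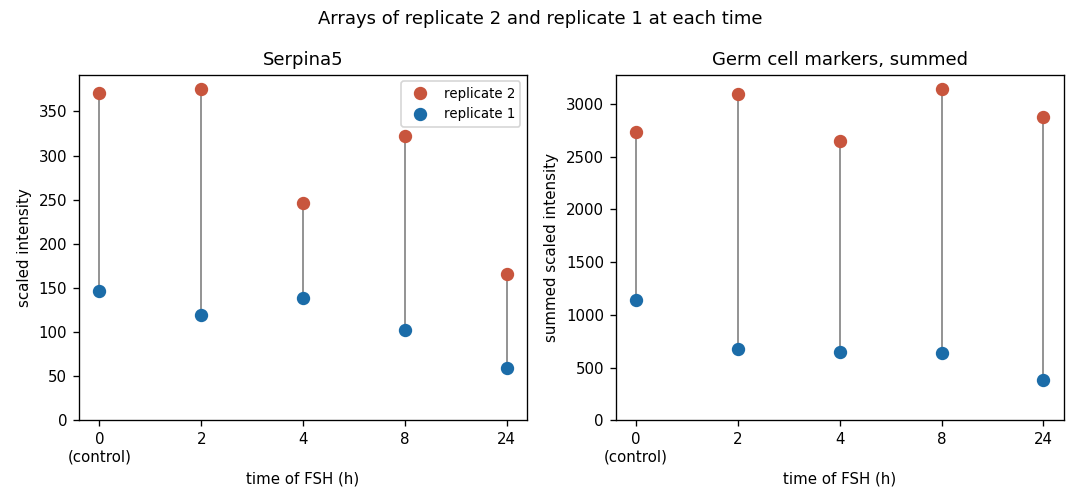
Scaled intensity of Serpina5 and summed scaled intensity of 8 germ cell markers on the replicate 2 and replicate 1 arrays of each time, with times evenly spaced and a line joining the 2 arrays. Serpina5 spans 165 to 376 in replicate 2 and 58.8 to 146 in replicate 1, and the germ cell sum spans 2643 to 3137 in replicate 2 and 381 to 1137 in replicate 1.

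Over the times of FSH, Serpina5 had its lowest value of each replicate number at 24 h. The log2 difference from the untreated array of the same number was -1.16 in replicate 2 and -1.32 in replicate 1 at 24 h, and between -0.59 and 0.02 at the earlier times. The fitted change at 24 h was -1.24 ± 0.79 log2 units (limma, adjusted p = 0.996), and it ran from -1.99 to -0.49 with 1 array left out, the larger size with 24 h replicate 2 left out, the smaller with 24 h replicate 1 left out. With the replicate number as a block its SE was 0.29, and the change still missed the threshold (adjusted p = 0.191). Over the same arrays the summed germ cell markers were 2874 and 381 at 24 h, against 2730 and 1137 at 0 h, in replicates 2 and 1. The summed markers of Sertoli cells, for the most part Clu, were 9467 to 12438 at 24 h and 9448 to 16755 at 0 h. The part of either in the Serpina5 values was not tested. In bulk RNA, fewer cells of a type and less RNA per cell cannot be told apart.

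Serpina3n, a clade A serpin related to human antichymotrypsin, had 78.3 and 54.3 at 0 h, 59.1 and 59.6 at 2 h, 58.8 and 43.5 at 4 h, 53.1 and 36.2 at 8 h, and 62.1 and 50.7 at 24 h. At 8 h both treated arrays lay below both untreated arrays, as for 17.2% of all probe sets, and at the other times the groups overlapped. The log2 changes were -0.14, -0.37, -0.57 and -0.22 (SE 0.38 each), none of which passed the test (limma, adjusted p = 0.755 to 0.999). This gene has close paralogues in the rat, so its signal may include theirs.

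Tfpi, the inhibitor of tissue factor signalling in coagulation, had 64.9 and 34.5 at 0 h, 51.7 and 55.4 at 2 h, 43.1 and 52.7 at 4 h, 56.2 and 26.1 at 8 h, and 50.8 and 26.6 at 24 h. Treated and untreated arrays overlapped at every time. The log2 changes were 0.18, 0.01, -0.30 and -0.36 (SE 0.53 each; limma, adjusted p = 0.946 to 0.999). The value of 0.01 at 4 h took the other sign with the values as deposited, with quantile normalization and with log2(value + 16).

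Counted over the members, 1 of 6 was called at 2 h, 1 at 4 h, 1 at 8 h and 0 at 24 h, each time Plat where there was one. Over all probe sets 0.676%, 0.856%, 0.766% and 0% were called at these times. With the replicate number as a block the members called were the same, where 1.22%, 2.95%, 2.68% and 0.0901% of all probe sets were called, with 1.15% between 24 and 8 h and 3.22% in the F test. At 24 h an unadjusted p under 0.05 was reached by 1 member and by 204 of 4439 probe sets with limma. The median log2 change over the 6 members was 0.12, -0.13, 0.09 and -0.29 at 2, 4, 8 and 24 h, beside -0.02, -0.03, -0.02 and 0.02 over all probe sets tested. An F test over all times called 1 member, Plat (adjusted p = 0.00166), and 0.991% of all probe sets.

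**Figure D3:**
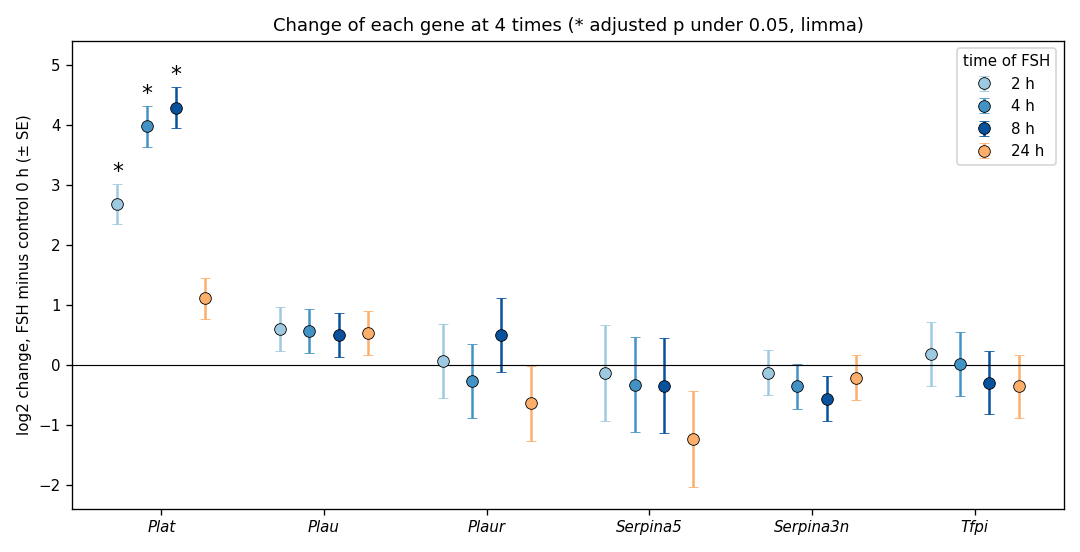
Log2 change of each gene against untreated cultures at 0 h after 2, 4, 8 and 24 h of FSH (points, with limma SE, n = 2 arrays a group). Stars mark an adjusted p under 0.05, which Plat alone among the 6 genes reached, at 2, 4 and 8 h. The changes of the other genes lie between -1.24 and 0.60.

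Whether Plat changed differently from each other member was asked within arrays. On each array the log2 value of the other gene was subtracted from that of Plat, and the 8 FSH arrays were compared with the 2 untreated arrays. The difference in log2 change was 3.53 against Serpina5, 3.33 against Serpina3n, 3.13 against Tfpi, 3.10 against Plaur and 2.46 against Plau. For Serpina5, Serpina3n, Tfpi and Plaur all 8 FSH arrays lay above both untreated arrays, and an exact two-sided permutation test gave p = 0.0222, the smallest that 45 splits allow (adjusted p = 0.0278 over the 5 pairs). For Plau, 7 of the 8 did, the 24 h array of replicate 1 being the exception, with an exact permutation p = 0.0444 (adjusted p = 0.0444). Plat was singled out with its course known, and all 5 pairs use the same Plat values, so these tests are not independent evidence for it.

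By time, Plat exceeded Plau in log2 change by 2.08 at 2 h, 3.41 at 4 h, 3.79 at 8 h and 0.58 at 24 h. Against Serpina5 the excess was 2.82, 4.31, 4.63 and 2.35 at the same times. Without control replicate 1 or 2 too few splits remain for any of the 5 pairs to pass. The pair of Plat and Plau was also lost in exact permutation tests without 2 h replicate 1 or 2 (adjusted p = 0.0556 each), 4 h replicate 1 (0.0833) or 2 (0.139), 8 h replicate 1 or 2 (0.0833 each) and 24 h replicate 2 (0.0556), and without control replicate 1 (0.222) or 2 (0.111). The pair with Serpina3n was lost without 8 h replicate 2 (0.0694).

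Over the 10 arrays, as a description, Pearson's r with Plat was 0.48 for Plau, 0.25 for Plaur, 0.05 for Serpina5, 0.04 for Tfpi and -0.59 for Serpina3n. Among the inhibitors r was 0.73 for Serpina5 and Tfpi, 0.65 for Serpina3n and Tfpi and 0.57 for Serpina5 and Serpina3n. The points share the replicate number, in which all 3 had positive differences (1.39, 0.51 and 0.36 log2 units), of which that of Serpina5 alone was called.

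Among 3707 other probe sets with 1 gene symbol, the course of Plat over the 10 arrays was most like those of Bex3 (r = 0.988), Ezr (0.981), Mvk (0.977), Crem (0.969) and Dgcr6 (0.969). Ezr encodes ezrin, which links membrane and actin, Mvk the mevalonate kinase of cholesterol synthesis, and Crem the transcription factor named above. The size of the change differed among them. At 8 h against 0 h the log2 change was 1.64 for Bex3, 2.58 for Ezr, 2.76 for Mvk, 4.41 for Crem and 4.04 for Dgcr6, with 1 untreated array of Crem at the floor. Bex3 had an intensity of 462 ± 25.6 at 8 h, against 148 ± 9.79 at 0 h (SD, n = 2). At 24 h all of them lay below their 8 h value, with a log2 difference of -1.13 for Bex3 and of -3.69 for Crem, the others lying between. These genes were picked for this likeness, so their courses are a description.

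**Figure D4:**
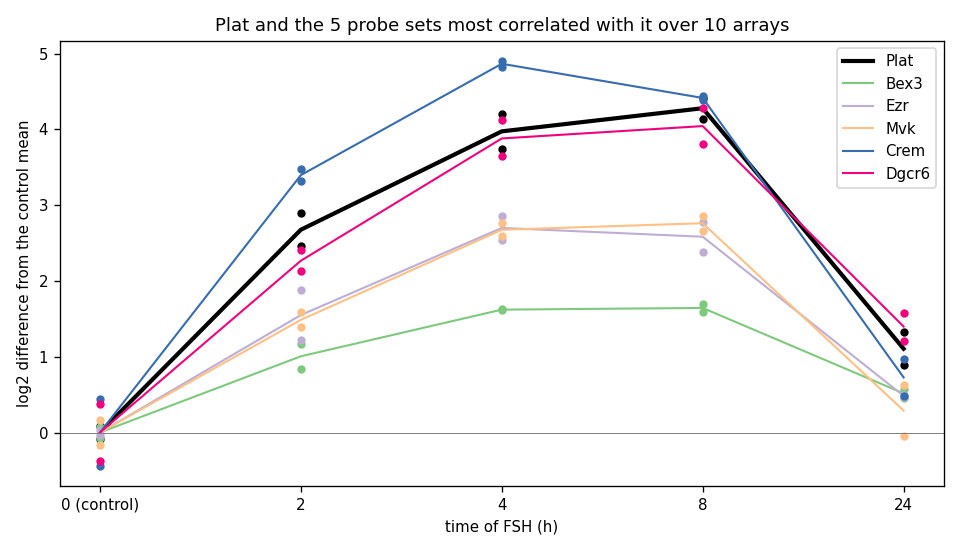
Log2 difference from the mean of the untreated arrays against time of FSH, with times evenly spaced, for Plat (black) and the 5 genes with the highest Pearson r to it over 10 arrays. Points are arrays and lines are means of 2 arrays. At 8 h Plat lies at 4.28, Crem at 4.41, Dgcr6 at 4.04, Mvk at 2.76, Ezr at 2.58 and Bex3 at 1.64.

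Of 18 further genes of the plasminogen system 13 were on the array and 4 were bright enough to test, namely Anxa2, S100a10, Eno1 and A2m. None was called against 0 h (limma, 0 of 4), and an unadjusted p under 0.05 was met by 1, at 24 h. At the brightest probe set of each gene, the largest changes were those of A2m (alpha-2-macroglobulin, which traps proteases of many kinds), at -0.89 ± 0.34 log2 units at 24 h, S100a10 (with annexin A2 a surface receptor for plasminogen), at -0.59 ± 0.37 at 8 h, and Eno1 (enolase, also a surface receptor for plasminogen), at -0.42 ± 0.40 at 4 h. The adjusted p was 0.996, 0.712 and 0.999. All 5 tested probe sets of A2m had negative changes at 24 h, from -1.74 to -0.76, and none was called. The dimmer probe set of Eno1 was at -0.65, -0.57, -0.90 and -0.31 at 2, 4, 8 and 24 h, none of them called.

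Of 7 tested genes among further serpins and other serine protease inhibitors, 0 passed limma without the replicate block, while 1 gene at each of 2, 4 and 8 h and 2 genes at 24 h had an unadjusted p under 0.05, as did 203, 344, 413 and 204 of all 4439 probe sets at these times. Wfdc1, a whey acidic protein family member, had the largest log2 changes of this list at 8 and 24 h. Its intensity was 71.9 and 302 at 0 h, 168 and 213 at 2 h, 378 and 519 at 4 h, 649 and 1422 at 8 h, and 1187 and 1474 at 24 h. The treated arrays lay above both untreated arrays at 4, 8 and 24 h, as for 15%, 17.7% and 15.9% of all probe sets. Its log2 change was 2.71 at 8 h (adjusted p = 0.120) and 3.17 ± 0.64 at 24 h (adjusted p = 0.451), and both passed with the replicate number as a block (adjusted p = 0.00773 and 0.0234). Both changes moved with the control arrays, 71.9 and 302. At 8 h the change was 3.74 without control replicate 1 (adjusted p = 0.0477) and 1.67 without control replicate 2, and at 24 h it was 4.202 and 2.13, with adjusted p of up to 0.851 at 8 h and 1 at 24 h over all arrays left out in turn. The summed markers of peritubular myoid cells were 1821 to 3848 at 24 h, against 930 to 1510 at 0 h, and their part in the 24 h change was not tested. At 8 h the sum was 1245 to 1395, within the range at 0 h. From 0 to 8 h it went from 1510 to 1395 in replicate 2 and from 930 to 1245 in replicate 1. The markers in it differed, with 3 of 6 at positive changes at 8 h and 0 called. Acta2 had a mean of 404 ± 72.5 at 8 h, against 202 ± 113 at 0 h, and Myl9 485 ± 46.9, against 638 ± 117. Their part in the 8 h change of Wfdc1 was not tested. By their means, Plat was highest at 8 h and Wfdc1 at 24 h.

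Spink8 (a Kazal-type inhibitor) was at 1.15 ± 0.33 log2 units at 24 h and Serpinb9 (an inhibitor of granzyme B) at -0.995 ± 0.45 at 8 h, neither past the test (adjusted p = 0.881 and 0.545). Of 7 tested genes of coagulation and other extracellular serine proteases, 0 passed limma, while 1 gene at 4 h and 1 at 24 h had an unadjusted p under 0.05. Masp1, a protease of the lectin pathway of complement, was at -1.14 ± 0.34 at 4 h (adjusted p = 0.263), Klk1, a kallikrein, at -0.91 ± 0.66 at 2 h (adjusted p = 0.999) and Pros1, the cofactor protein S, at -0.52 ± 0.44 at 24 h (adjusted p = 0.996). The Klk1 value depended on the floor, at which 1 of the 2 h arrays lay: it was -0.41 with the percentile divided by 4, -1.41 with it divided by 16, and -1.72 to -0.11 with 1 array left out. Beside Plat, Sertoli markers summed to 10809 to 17219 at 8 h, against 9448 to 16755 at 0 h. Clu made up most of that sum, with means of 9701 ± 3050 and 10738 ± 4305. Inha in it was higher at 8 h (2196 ± 1050, against 214 ± 103), while Fshr and Aqp8 had lower means and were not called. Of the 10 markers 5 had positive changes at 8 h. The part of Sertoli content in the Plat values was not tested. The endothelial marker Flt1 was at 43.1 to 71.9 at 8 h, against 55.7 to 72.6 at 0 h. The other endothelial markers were too dim to test, with maxima of 57.5 for Kdr, 41.7 for Pecam1, 24.7 for Vwf and 15.2 for Icam2.

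**Figure D5:**
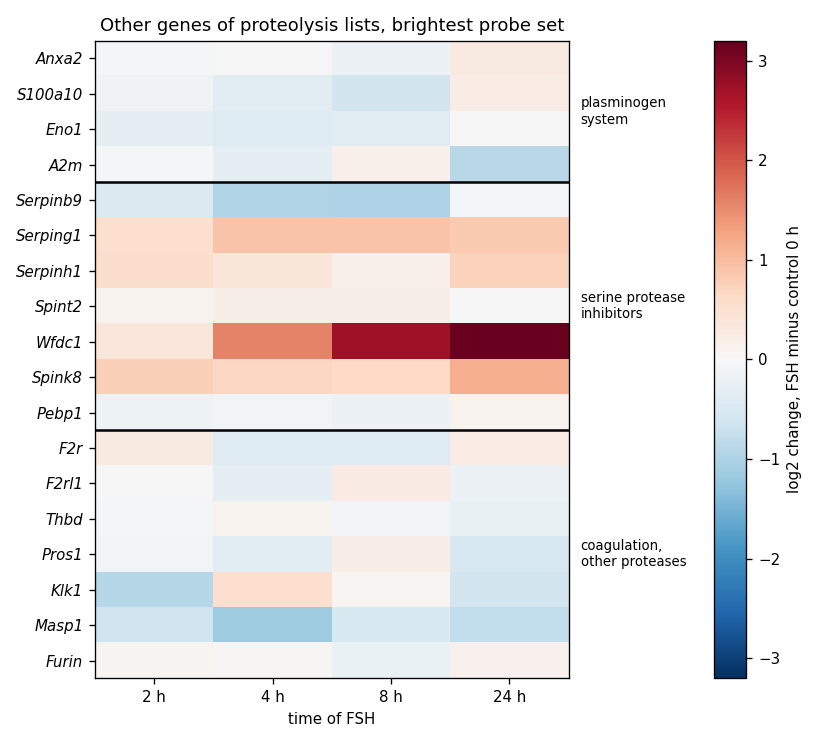
Log2 change against untreated cultures at 0 h after 2, 4, 8 and 24 h of FSH (colour) for 18 further genes of proteolysis bright enough to test, each at its brightest probe set and grouped by list. Wfdc1 reaches 3.17 at 24 h, and the other genes lie between -1.14 and 1.15.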

How the data were processed

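The table deposited by the authors held 1 linear intensity for each probe set on each array. The labels state no processing. Mean intensities without the lowest and highest 2% were 125.2 to 125.27 on every array. Arrays were divided by 0.911 to 1.13 to share a 75th percentile of 107, floored at that percentile divided by 8 (13.4) and put on a log2 scale. Control probe sets (59) were left out, and 4439 probe sets with a mean of at least 31.9 were tested. Symbols came from the platform's annotation.

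limma 3.58.1 in R 4.3.3 (lmFit, eBayes with an intensity trend, 1 mean per group) was used, with Benjamini-Hochberg adjustment over all 4439 within a comparison and a threshold of 0.05. SE and 95% intervals are moderated. limma was run on simulated data with independent noise between arrays, and the permutation code on values made to differ. These runs check the code and do not cover deviations shared within a replicate number. Comparisons between 4 and 2 h and between 8 and 4 h were added to the planned ones. Comparisons with 0 h share their control arrays.

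The 2 h array without a number was counted as replicate 1. For each of the 10 pairs of times, arrays of one number deviated together from their group means (r = 0.11 to 0.698). The lowest r was that of 0 and 2 h. The numbers may pair the samples, but the labels do not say what they share. The main fit leaves the number out, and the fit with it as a block is given beside it. Members, gene lists and tests were chosen with earlier results of these data known. Named list genes are those called with 0 h in either fit plus the 3 largest changes of each list, at the brightest probe set. Likeness to Plat was Pearson's r over 10 arrays, and the 5 highest were named. Promoter windows came from RefSeq (GRCr8). The number of arrays limits the precision.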

Additional observations from a re-analysis of the deposited data

Results flagged for a closer look

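The log2 change of Plat against 0 h differed between time points, at 1.11 at 24 h and 4.28 at 8 h. FSH and time in culture cannot be told apart in it. The difference itself, -3.17 log2 units, passed limma's test (adjusted p = 0.0109). It missed the threshold with any 8 h or 24 h array left out (adjusted p = 0.0867 to 0.135) and with no filter on dim probe sets (0.0527).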

How the results depend on the processing

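With 2 arrays a group, even changes of several times their SE could miss the threshold. Plat at 24 h (1.11 ± 0.34 log2 units) and Wfdc1 at 24 h (3.17 ± 0.64) did so in limma without the block. A change that was not called is therefore not shown to be absent. Fits that leave out 1 array compare a group of 1, assumed to vary like the others, so part of each lost call is built in. With the replicate block the same member, Plat, was called at 2, 4 and 8 h and between 24 and 8 h, and it changed no call of a member. The pairs of Plat with another member kept their direction in every alternative run and, permuted within replicate numbers as a block, all reached p = 0.04, the smallest that 25 splits allow in an exact test. These pairs all use the same Plat values, so they are not separate results. Averaging probe sets was not run, as each member has 1.

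Leaving out 1 array gave 0 to 1 members called at 2 h, 0 to 1 between 24 and 8 h (0 also with no filter) and 1 to 2 between replicate numbers, where Plaur was added at 0.87 log2 units (limma, adjusted p = 0.0361) without either control. The pair differences ran from 2.26 to 2.82 for Plau, 2.66 to 3.54 for Plaur, 2.77 to 4.28 for Serpina5, 2.98 to 3.68 for Serpina3n and 2.59 to 3.67 for Tfpi. With log2(value + 16) the difference to Plau was 2.07 and lost its call (adjusted p = 0.0889 in the exact permutation test).

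The sign turned only for values that had passed no test. Leaving out 1 array, the changes at 2 h ran from -0.28 to 0.63 for Tfpi, -0.46 to 0.59 for Plaur, -0.97 to 0.69 for Serpina5, -0.40 to 0.13 for Serpina3n and -0.68 to 1.39 for Wfdc1. At 4 h they ran from -1.08 to 0.53 for Plaur, -0.45 to 0.46 for Tfpi, -1.004 to 0.34 for Serpina5 and -0.94 to 0.11 for Eno1. At 8 h they ran from -0.0377 to 1.02 for Plaur, -1.18 to 0.47 for Serpina5 and -0.86 to 0.25 for Tfpi. At 24 h they ran from -0.48 to 0.0466 for Serpina3n, -0.83 to 0.10 for Tfpi and -1.32 to 0.0249 for Plaur. Between 24 and 8 h Plau ran from -0.32 to 0.40 and Tfpi from -0.61 to 0.49, and Plat between replicate numbers from -0.20 to 0.0267. As deposited, Tfpi was at -0.01555 at 4 h and Plat at 0.0595 between replicate numbers. With quantile normalization Tfpi was at -0.0181 at 4 h and 0.0159 between 24 and 8 h, and with log2(value + 16) at -0.0048 at 4 h. The cause was not tested.

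Over all probe sets, limma called 30, 38, 34 and 0 at 2, 4, 8 and 24 h, 10 between 24 and 8 h and 44 in the F test, and with the replicate block 54, 131, 119, 4, 51 and 143. With no filter it called 4 at 24 h, 2 between 24 and 8 h, 14 between 4 and 2 h and 13 between 8 and 4 h. Leaving out 1 array gave 0 to 31 at 2 h, 8 to 28 at 4 h, 5 to 26 at 8 h and 0 to 15 between 24 and 8 h.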
